A study of Mus musculus with 16 samples.

Results

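The acyl-CoA thioesterase family was followed in mouse liver through 9 genes, chosen by their symbols: Acot1, Acot2, Acot3, Acot4, Acot5, Acot8, Acot11, Acot12 and Acot13. They are 9 of the 50559 gene symbols in the expected count table, which lists 13 symbols that start with Acot. All 9 were among the 18335 genes that passed the filter on low counts, but Acot5 passed it only through the HFD + Inhib group. Acot1 and Acot2 share sequence, so their sum was analyzed as well.

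In all, 4 groups of 4 male C57Bl6 mice (C57BL/6J in the methods) were compared, each liver giving 1 library. The mice entered the study at 6 weeks of age and were killed after 10 weeks on a low-fat diet (LFD, which the sample labels call chow) or a high-fat diet. Treatment filled the final 4 weeks. LFD and HFD mice were injected with a control siRNA against luciferase (10 mg/kg every 2 weeks) and gavaged with the methylcellulose vehicle. The HFD + siRNA group received an siRNA against ketohexokinase (KHK, the first enzyme of fructose breakdown) at 20 mg/kg with the vehicle. Mice of the HFD + Inhib group were given luciferase siRNA and a small molecule KHK inhibitor at 15 mg/kg, 2 times a day. The siRNA was linked to a sugar that hepatocytes take up, whereas the inhibitor was given by mouth. The methods give the mice saline or insulin shortly before collection, and the labels do not say which mouse received which. Library totals ranged from 24317111 to 35820234 expected counts (median 29570114). Levels are given as CPM, counts scaled to library size after TMM scaling between libraries.

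Acyl-CoA thioesterases split fatty acyl-CoA esters into a free fatty acid and coenzyme A. They lie opposite to the acyl-CoA synthetases, which make the same esters, and thereby set how much acyl-CoA and free coenzyme A each compartment of the cell holds. One branch of the family (Acot1 to Acot6 in the mouse) has an alpha/beta-hydrolase fold and sits side by side on a single chromosome, with enzymes in the cytosol (Acot1), the mitochondrion (Acot2) and the peroxisome (Acot3, Acot4, Acot5). The other branch has the hotdog fold and includes Acot8 in the peroxisome, Acot12, which splits acetyl-CoA in the cytosol, Acot13, which associates with mitochondria, and Acot11, which like Acot12 carries a lipid-binding START domain. Several of the genes are textbook targets of PPAR alpha, the nuclear receptor for fatty acids that also governs peroxisomal and mitochondrial beta-oxidation.

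Khk itself checked the labels. It was at 11.8, 9.14, 18.1 and 11.5 CPM in the HFD + siRNA livers and between 233 and 322 CPM in the HFD livers, a log2 fold change of -4.38 (SE 0.23, adjusted p = 1.9e-08). In the HFD + Inhib livers Khk was at 94.6 to 152 CPM, a log2 fold change of -1.14 against HFD (SE 0.20, adjusted p = 0.00075). No library of either treated group overlapped the HFD group. Among the libraries, HFD replicate 2 and LFD replicates 3 and 4 held reads of the adipocyte genes Adipoq (10, 16 and 7 counts) and Plin1 (9, 15 and 6 counts), and HFD replicate 2 also of Lep (21 counts); in the other 13 these genes had at most 3, 1 and 0 counts. Leaving out HFD replicate 2 changed the calls of Acot13 in 2 comparisons, given with them, and of no other member, and leaving out LFD replicate 3 or 4 changed none.

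Most of the thioesterase genes were at their highest levels in the inhibitor group. Of the 8 members other than Acot5, 7 were higher in HFD + Inhib than in HFD and 1 (Acot11) was lower, whereas 9.80% of all tested genes were called higher and 8.42% lower in that comparison. The median log2 fold change of these 8 members was 1.32, beside 0.00 over all tested genes. Acot1 to Acot4 of the chromosomal cluster rose by log2 fold changes from 1.76 to 4.46, and the 3 hotdog-fold genes that rose moved by 0.55 to 0.89. In bulk liver, fewer cells of a type and less RNA per cell cannot be told apart.

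**Figure D1:**
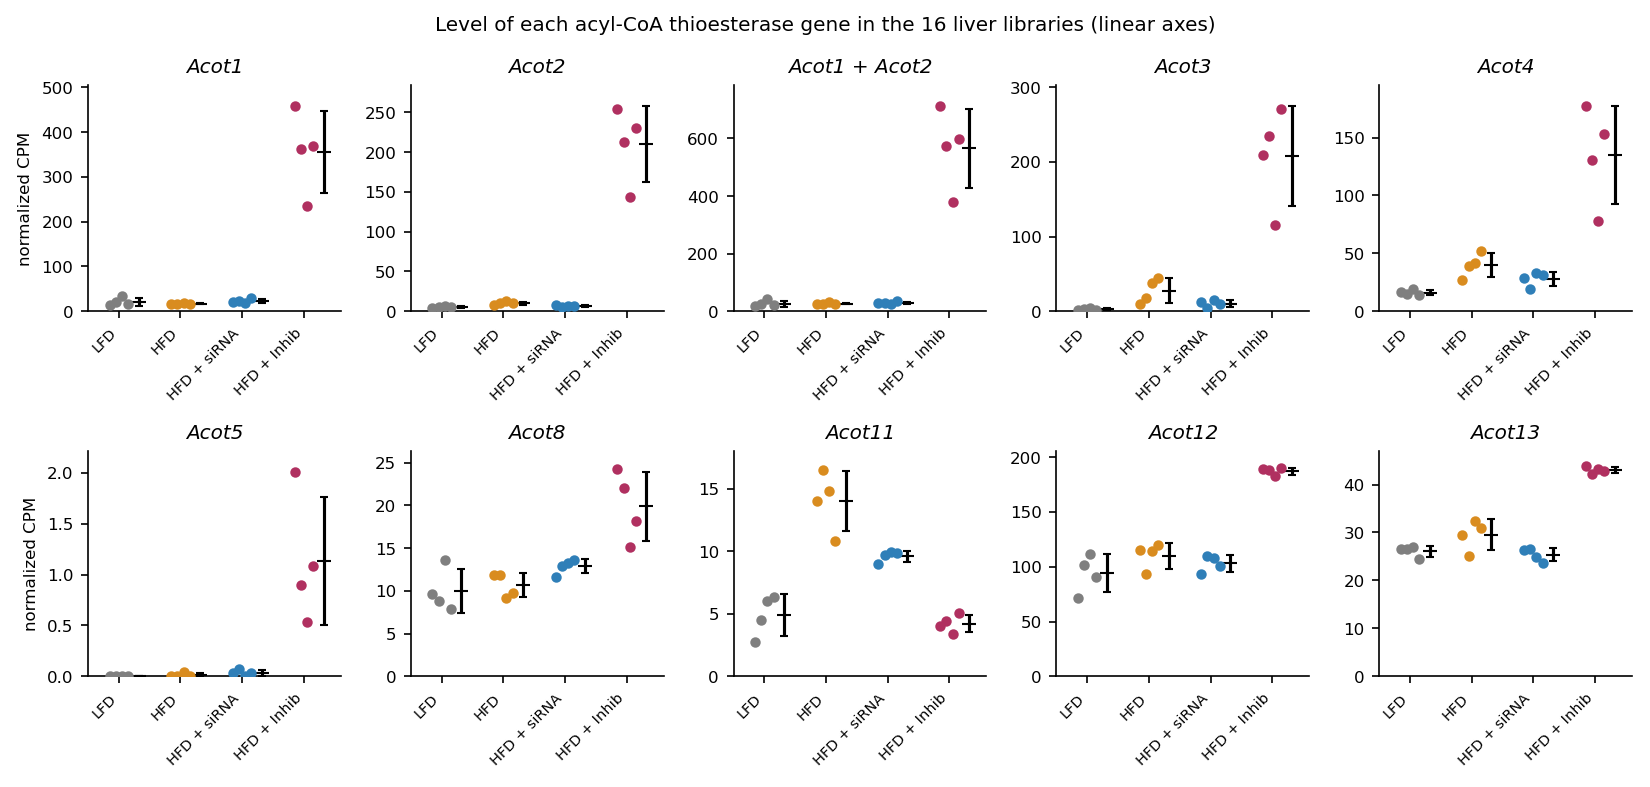
Level of each member and of the sum of Acot1 and Acot2 in normalized CPM (vertical axes, linear from 0, one scale per panel) in the 4 groups. Points are the 4 libraries of a group in replicate order and bars are the mean ± SD. The sum of Acot1 and Acot2 lies at 379 to 712 CPM in HFD + Inhib and at 23.8 to 30.2 CPM in HFD. Acot11 lies at 3.37 to 5.07 CPM in HFD + Inhib, in the range of the LFD libraries.

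Acot1, the cytosolic long-chain enzyme, was at 458, 362, 236 and 369 CPM in the HFD + Inhib livers. The HFD livers had 16.1, 15.3, 17.8 and 15.6 CPM. Every HFD + Inhib library was thus above every HFD library, and the means of 356 ± 91.3 and 16.2 ± 1.13 CPM (SD, n = 4 each) differed by 22.0-fold (log2 fold change 4.46, SE 0.27, adjusted p = 1.7e-08). Acot2, the mitochondrial enzyme, was at 254, 213, 143 and 230 CPM with the inhibitor. In HFD it was at 7.67, 9.56, 12.4 and 9.65 CPM. The groups again did not overlap, and the 21.4-fold difference had a log2 fold change of 4.42 (SE 0.23, adjusted p = 2.9e-09).

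Reads of these neighbours can be assigned to either gene. In GENCODE M21 transcripts, 24.5% of the 50-base words of Acot2 also occur in Acot1, and 13.6% of those of Acot1 occur in Acot2. RSEM divides reads that match both, and the sum does not depend on that division. The sum was at 712, 575, 379 and 598 CPM in HFD + Inhib and at 23.8, 24.9, 30.2 and 25.2 CPM in HFD, without overlap (log2 fold change 4.44, SE 0.25, adjusted p = 8.9e-09). How far the transcripts differ can be seen at the 2 primers that the study lists for Acot1 quantitative PCR. Both match 3 of the 4 Acot1 transcripts exactly, and their closest sites in Acot2 carry 4 mismatches each. The capitals mark those positions.
Acot1 forward primer: ataccccctgtgAcTAtCctga
Acot1 reverse primer: cAaacActCActacccaactgt
Counted from 1 at the 5′ end, with the primer's base first, the forward primer differs from Acot2 by A13T, T15C, A16C and C18T, and the reverse primer by A2T, A6T, C9T and A10G.

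The division between Acot1 and Acot2 was not the same in the 4 groups. Acot1 took 76.4% to 83.1% of their joint counts in LFD, 59% to 67.8% in HFD, 73% to 82% with the knockdown and 61.6% to 64.3% with the inhibitor. The HFD shares lay below all LFD and all HFD + siRNA shares, and the HFD + Inhib shares lay within the HFD range. A share of expected counts rests on how RSEM divided the shared reads, so these are given as descriptions without a test.

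**Figure D2:**
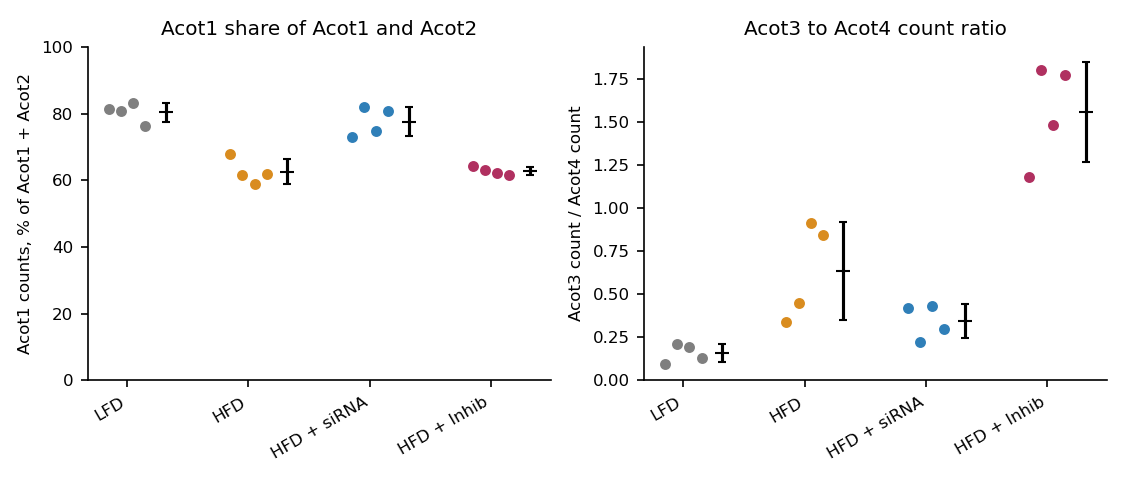
Acot1 counts as a percentage of Acot1 and Acot2 counts (left) and the ratio of Acot3 to Acot4 counts (right) in each library, by group. Points are libraries and bars are the mean ± SD (n = 4); the Acot1 share was 80.4 ± 2.84% in LFD and 62.5 ± 3.73% in HFD, and the Acot3 to Acot4 ratio was lowest in LFD (0.158 ± 0.054) and highest in HFD + Inhib (1.56 ± 0.288).

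Acot3, a peroxisomal long-chain enzyme, was called in all 4 comparisons, although its call in HFD + siRNA versus HFD was lost in 9 of 17 alternatives. It was at 1.55, 3.15, 3.65 and 1.83 CPM in the LFD livers and at 9.15, 17.4, 38.1 and 43.9 CPM in HFD. With the inhibitor it was at 210, 235, 115 and 271 CPM. No group of these 3 overlapped another, but the HFD libraries spread from 9.15 to 43.9 CPM, and the 7.67-fold rise over HFD carried a larger error than that of Acot1 (log2 fold change 2.94, SE 0.45, adjusted p = 0.00024). Of its 50-base words, 19.1% are shared with another gene, Gm49366 and Acot5 ahead of the rest.

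Acot4, which in the peroxisome also splits succinyl-CoA and other dicarboxylyl-CoA esters, was at 177, 131, 77.8 and 153 CPM in HFD + Inhib. The HFD values were 27.1, 38.7, 41.7 and 52.1 CPM, below all of these, and the log2 fold change was 1.76 (SE 0.23, adjusted p = 6.5e-05). Only 4.5% of its words are shared with any other gene. Against Acot4, Acot3 rose further: the ratio of Acot3 to Acot4 counts went from 0.337 to 0.914 over the HFD livers and from 1.18 to 1.80 over the HFD + Inhib livers.

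Acot5, a peroxisomal medium-chain enzyme, was close to absent outside the inhibitor group. It had 0 counts in every LFD library, at most 1 in HFD and at most 2 in HFD + siRNA, all below a floor of 3 counts per library. In HFD + Inhib it had 57, 23, 16 and 36 counts, or 2.01, 0.893, 0.533 and 1.08 CPM. Set against the floor, Acot5 was at least 11-fold higher in HFD + Inhib than in HFD and than in HFD + siRNA. Because only the HFD + Inhib libraries carried it past the filter, it had to differ there. No p-value is therefore given for Acot5, and it is kept out of the counts above. Acot5 shares 13.3% of its words with Acot1 and 13.7% with Acot3, so part of its few reads could belong to them.

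Since Acot1 to Acot4 all rose with the inhibitor, the promoters of the members were searched for the letters that PPAR alpha and its partner RXR bind. RefSeq windows from 250 bases before to 50 after the start were available for 8 of the 9 members (assembly GRCm38.p6, which is not the build named for the counts). The half-site AGGTCA, on either strand, occurs in 16.3% of all 32851 windows. A direct repeat of it with 1 base between the copies and at most 2 mismatches occurs in 3.9%. Among the members, the repeat was found in the windows of Acot4 and Acot12. Half-sites without the repeat were found in those of Acot3 (1 per window) and Acot5 (2 per window). The windows of Acot1, Acot2, Acot8 and Acot11 held neither. The windows with the repeat are shown beside that of Acot1, the member with the highest level in HFD + Inhib, with both copies in capitals.
Acot4, chr12:84038129-84038428, plus strand: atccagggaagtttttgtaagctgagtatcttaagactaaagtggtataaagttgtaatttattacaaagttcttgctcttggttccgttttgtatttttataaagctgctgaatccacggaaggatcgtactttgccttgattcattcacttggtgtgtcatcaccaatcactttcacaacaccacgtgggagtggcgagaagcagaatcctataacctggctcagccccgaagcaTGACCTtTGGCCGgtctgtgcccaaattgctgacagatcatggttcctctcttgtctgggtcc
Acot12, chr13:91741271-91741570, plus strand: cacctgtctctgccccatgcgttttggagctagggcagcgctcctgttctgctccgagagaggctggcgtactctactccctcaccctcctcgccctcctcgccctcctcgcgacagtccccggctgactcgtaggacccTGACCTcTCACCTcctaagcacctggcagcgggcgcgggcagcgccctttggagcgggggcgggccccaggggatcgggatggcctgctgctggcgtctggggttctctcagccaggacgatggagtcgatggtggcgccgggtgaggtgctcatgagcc
Acot1, chr12:84009252-84009551, plus strand: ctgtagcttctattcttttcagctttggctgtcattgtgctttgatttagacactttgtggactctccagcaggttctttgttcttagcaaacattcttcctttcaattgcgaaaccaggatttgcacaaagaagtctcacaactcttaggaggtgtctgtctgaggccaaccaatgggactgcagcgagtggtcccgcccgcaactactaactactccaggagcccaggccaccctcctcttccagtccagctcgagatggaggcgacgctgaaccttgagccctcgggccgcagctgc
Both repeats read on the minus strand. The Acot4 repeat begins 13 bases before the start and has 2 mismatches, and that of Acot12 begins 110 bases before it and has 1. A match of letters is a description and not a shown binding site, and binding elsewhere was not examined.

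Outside the cluster the rises were smaller. Acot12, the cytosolic acetyl-CoA hydrolase, was at 189, 188, 183 and 190 CPM in HFD + Inhib against 115, 93, 114 and 120 CPM in HFD. The groups did not overlap and differed by 1.70-fold (log2 fold change 0.76, SE 0.12, adjusted p = 0.00023). Acot13 was at 43.8, 42.2, 43.3 and 42.8 CPM against 29.5, 25, 32.5 and 31 CPM. All its HFD + Inhib libraries were the higher ones, with a log2 fold change of 0.55 (SE 0.08, adjusted p = 0.00018), but the difference lost its call after offsets for GC content and transcript length (0.33, adjusted p = 0.094). Acot8, whose peroxisomal enzyme acts on a broad range of chain lengths and on bile acid CoA esters, was at 24.3, 22.0, 15.1 and 18.2 CPM with the inhibitor and at 9.22 to 11.9 CPM in HFD. Its log2 fold change was 0.89 (SE 0.17, adjusted p = 0.0014), again without overlap.

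Acot11 went the other way. It was at 4.03, 4.43, 3.37 and 5.07 CPM in HFD + Inhib and at 14.0, 16.5, 14.8 and 10.8 CPM in HFD. All inhibitor libraries were below all HFD libraries, 3.32-fold on average (log2 fold change -1.73, SE 0.21, adjusted p = 2.5e-05). The LFD livers, at 2.73 to 6.36 CPM, covered the range of the inhibitor group.

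**Figure D3:**
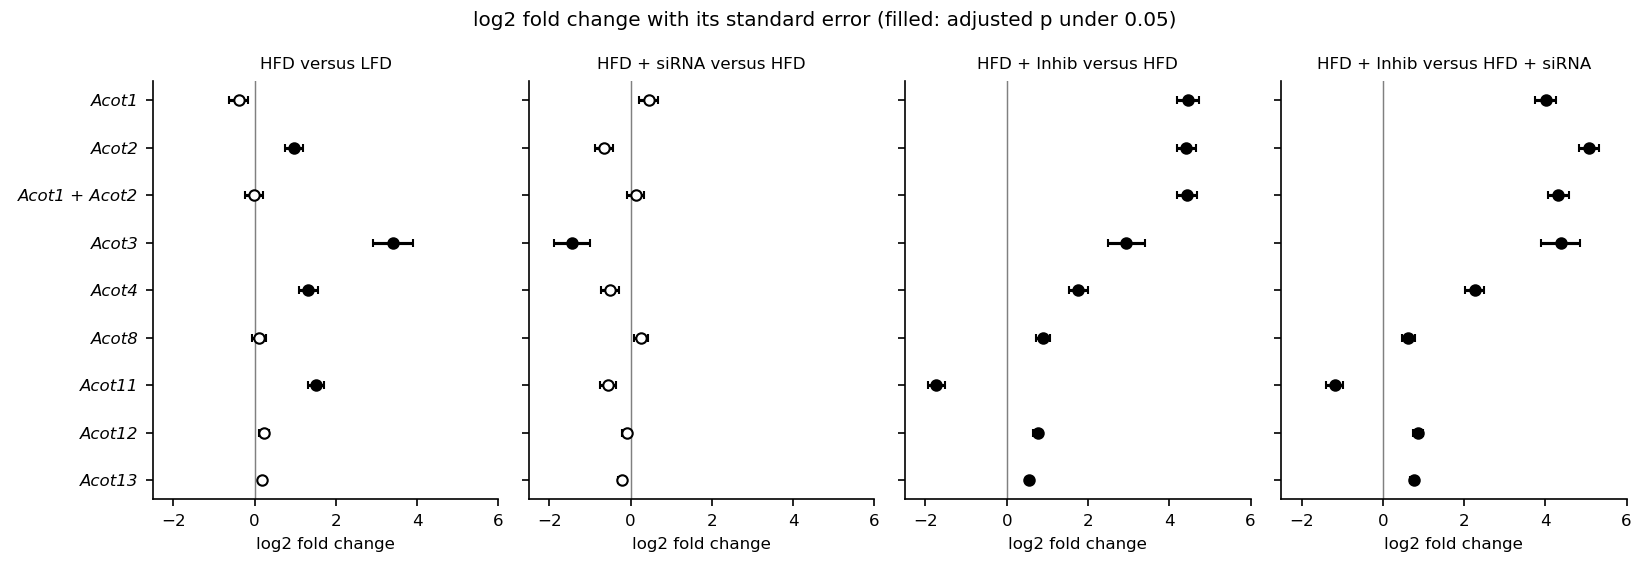
log2 fold change (horizontal axes) with its standard error for 8 members and the sum of Acot1 and Acot2, in the 4 comparisons. Filled points passed an adjusted p of 0.05; Acot5 is left out because it was at or under the floor in 3 groups. In HFD + Inhib versus HFD the values run from -1.73 for Acot11 to 4.46 for Acot1.

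The diet comparison asked which members differ between fat-fed and lean livers. Of the 8 members other than Acot5, 4 were higher in HFD than in LFD (Acot2, Acot3, Acot4 and Acot11), none was lower and 4 did not pass the test, beside 9.58% of all tested genes called higher and 8.80% lower. Acot3 rose most: the means were 27.2 ± 16.5 CPM in HFD and 2.54 ± 1.01 CPM in LFD (log2 fold change 3.40, SE 0.49, adjusted p = 0.00041). Acot11 rose from 4.90 ± 1.66 to 14.0 ± 2.40 CPM (1.51, SE 0.20, adjusted p = 0.00026) and Acot4 from 15.9 ± 2.04 to 39.9 ± 10.3 CPM (1.32, SE 0.23, adjusted p = 0.0016). None of these 3 overlapped between the diets.

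Of the pair Acot1 and Acot2, only the second was called in this comparison. Acot2 was at 3.32, 4.82, 6.96 and 4.91 CPM in LFD and at 7.67 to 12.4 CPM in HFD, with no overlap and a log2 fold change of 0.96 (SE 0.22, adjusted p = 0.0076). Acot1 was at 14.6, 20.2, 34.2 and 15.9 CPM in LFD, a range that held all the HFD values, and its log2 fold change of -0.39 (SE 0.24) did not pass the test (adjusted p = 0.27) and was -0.05 without LFD replicate 3. Their sum was 26.2 ± 10.4 CPM in lean and 26 ± 2.85 CPM in fat-fed livers (-0.01, SE 0.22, adjusted p = 0.98). The sum reached 0.30 without LFD replicate 3, the library with the highest Acot1. For Acot8, Acot12 and Acot13 the log2 fold changes were 0.10, 0.23 and 0.18 (SE 0.17, 0.12 and 0.08), with adjusted p-values of 0.72, 0.18 and 0.14. With the offsets for GC content and length Acot13 was at 0.73 (adjusted p = 0.0019), and without HFD replicate 2, its lowest HFD library, at 0.25 (adjusted p = 0.033).

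Knockdown of Khk gave few calls, among the members as among all tested genes. In HFD + siRNA versus HFD, 1 of the 8 members other than Acot5 was lower (Acot3), none was higher and 7 did not pass. Over all tested genes 5.20% were called higher and 6.55% lower, so the members were near the share over all genes. Acot3 was at 12.1, 4.34, 14.2 and 9.26 CPM in HFD + siRNA, which overlaps the HFD range of 9.15 to 43.9 CPM. Its log2 fold change of -1.44 (SE 0.44, adjusted p = 0.043) did not pass without HFD replicate 3 (-1.23, adjusted p = 0.13), without HFD replicate 4 (-1.13, adjusted p = 0.13), or without HFD + siRNA replicate 1, 2 or 4 (adjusted p = 0.066, 0.09 and 0.10). It was also lost in a fit of the 2 compared groups only (adjusted p = 0.065). Acot2 (4.78 to 7.54 CPM) and Acot11 (8.95 to 9.91 CPM) lay below all HFD libraries, but their log2 fold changes of -0.65 (SE 0.22) and -0.55 (SE 0.20) did not pass the test (adjusted p = 0.062 and 0.082). Both passed it with DESeq2 (adjusted p = 0.023 and 0.04).

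For the others the knockdown and HFD libraries overlapped. The log2 fold changes were 0.44 for Acot1 (SE 0.24, adjusted p = 0.25), -0.51 for Acot4 (SE 0.23, adjusted p = 0.17) and 0.26 for Acot8 (SE 0.17, adjusted p = 0.34). Acot12 gave -0.10 (SE 0.12) and Acot13 -0.22 (SE 0.08), with adjusted p-values of 0.63 and 0.089. Acot13 passed the test at -0.76 with the offsets for GC content and length (adjusted p = 0.0023) and at -0.29 without HFD replicate 2 (adjusted p = 0.022). For the sum of Acot1 and Acot2 the value was 0.12 (SE 0.22, adjusted p = 0.78), with HFD + siRNA libraries at 27.9, 26.6, 23.7 and 35 CPM.

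The direct comparison set the 2 ways of lowering KHK side by side. In HFD + Inhib versus HFD + siRNA, 7 of the 8 members other than Acot5 were higher and Acot11 was lower, beside 17.3% of all tested genes called higher and 16.6% lower. Acot2 differed most, by 33.5-fold (log2 fold change 5.07, SE 0.24, adjusted p = 7.8e-10). Acot3 and Acot1 followed with 4.38 (SE 0.48, adjusted p = 6.5e-06) and 4.01 (SE 0.26, adjusted p = 3.1e-08). The sum of Acot1 and Acot2 differed by 4.32 (SE 0.25, adjusted p = 1e-08). Both comparisons of the inhibitor share its 4 libraries and are not independent of each other.

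Acot4 was 4.80-fold higher with the inhibitor than with the knockdown (2.26, SE 0.24, adjusted p = 3.8e-06). Acot12, Acot13 and Acot8 were higher by log2 fold changes of 0.86, 0.76 and 0.63 (SE 0.12, 0.08 and 0.17, adjusted p = 4.4e-05, 4e-06 and 0.0079). Acot11 was lower by -1.18 (SE 0.21, adjusted p = 0.00042).

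To set the members beside each other, levels were divided by the mean transcript length of each gene. This holds for reads spread along transcripts; the methods name a probe assay, for which length would not apply, and which of them made the counts is not settled. In LFD, HFD and HFD + siRNA, Acot12 and Acot13 led with 63.4 and 60.1, 74.4 and 67.9, and 69.4 and 58.4 CPM per kilobase. They differed by less than their spread in LFD and HFD (SD 11.7 and 2.65, 7.99 and 7.43), and with the longest transcript in place of the mean their order turned in all 3 groups. Next came Acot1 in LFD at 13.4 ± 5.69 and Acot4 in HFD at 16.6 ± 4.27 CPM per kilobase, although with the longest transcript Acot8 took that place in HFD. Acot3, Acot1 and Acot8 followed Acot4 in HFD at 11.9 ± 7.26, 10.3 ± 0.715 and 10.4 ± 1.38, not apart from each other beyond their spread.

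In HFD + Inhib the order was another. Acot1 led at 226 ± 57.9 CPM per kilobase, above Acot12 at 126 ± 2.14 and Acot13 at 99.1 ± 1.59. Acot2 and Acot3 stood beside Acot13, at 95.6 ± 21.7 and 91.3 ± 29.2, and Acot4 at 56 ± 17.7. With the longest transcript Acot1 still led, and Acot2 came before Acot12. The 9 genes added up to 716 ± 126 CPM per kilobase, against 159 ± 22 for LFD, 203 ± 21.3 for HFD and 178 ± 3.42 for the knockdown. The cluster genes Acot1 to Acot5 made up 14.5 ± 2.48% of that sum in lean livers, 21.1 ± 4.29% in HFD, 18.5 ± 2.82% with the knockdown and 64.7 ± 6.29% with the inhibitor.

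**Figure D4:**
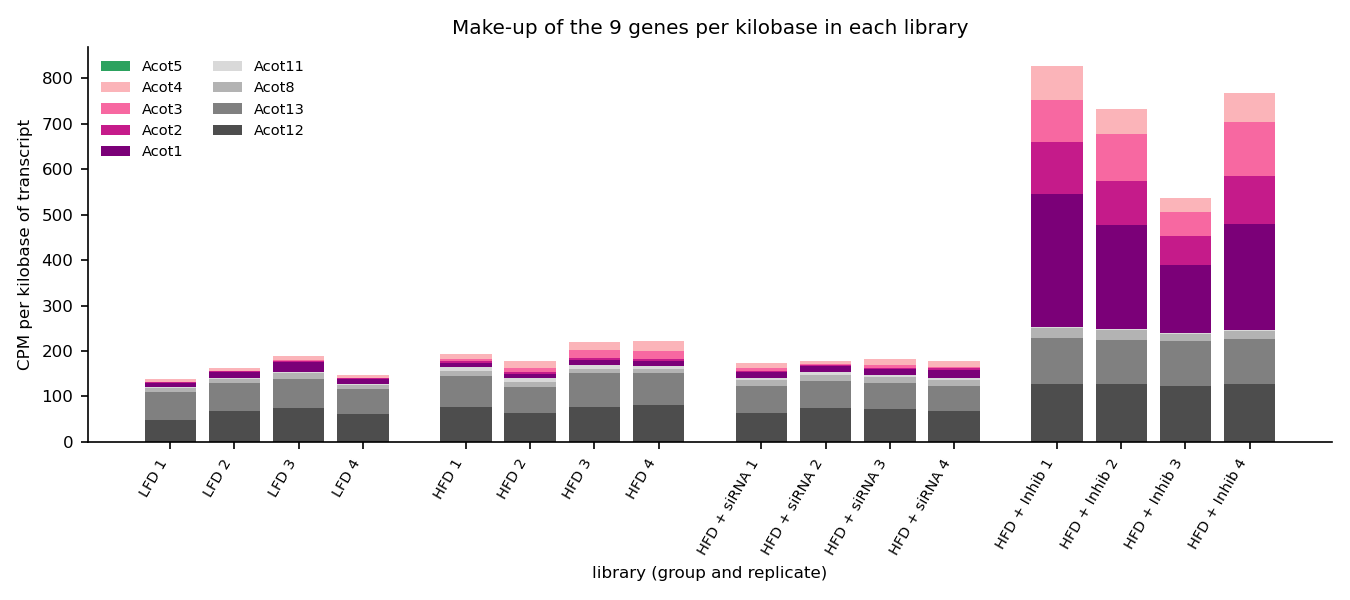
Sum of the 9 genes in CPM per kilobase of mean transcript length (vertical axis) in each of the 16 libraries, stacked by gene. Grey shades are the hotdog-fold genes and coloured parts the cluster genes; the HFD + Inhib libraries reach 537 to 827 CPM per kilobase and the other 12 stay at 138 to 222.

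Within the inhibitor group the members did not vary alike. The coefficient of variation was 25.6% for Acot1, 22.7% for Acot2, 32% for Acot3 and 31.5% for Acot4. It was 20.4% for Acot8 and 16.9% for Acot11, and 1.70% and 1.61% for Acot12 and Acot13. Replicate 3 was the lowest library of the group for 7 of the 8 members other than Acot5. Without it the log2 fold change of the sum of Acot1 and Acot2 against HFD was 4.59, the highest of the fits that left out a library, and no call was lost. In LFD, replicate 3 was the highest library for 7 of these 8 members. In HFD, replicate 1 was the lowest and replicate 4 the highest for both Acot3 and Acot4.

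Genes outside the family were ranked by how closely they followed a member over the 16 libraries, as the root mean square difference of log2 CPM after centring each gene. This measure has no test. For the sum of Acot1 and Acot2 the nearest were Cpt1b (0.301), the muscle-type carnitine palmitoyltransferase, Slc27a1 (0.395), a fatty acid transport protein, Ehhadh (0.455), the bifunctional enzyme of peroxisomal beta-oxidation, the predicted gene Gm36848 (0.513), and Cyp4a10 (0.519), a fatty acid omega-hydroxylase. The sum itself varied by 1.93 on the same scale. Cpt1b went from 2.90 ± 0.198 CPM in HFD to 51.8 ± 8.09 in HFD + Inhib (log2 fold change 4.16, SE 0.23, adjusted p = 4e-09).

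All genes listed for Acot1 and Acot2 alone are among these 5. None is named for Acot5, whose profile in 12 libraries is set by the prior count. Acot12 lay close to Acad11 (0.13) and Palmd (0.131). Acot8 lay nearest to Cpt2 (0.176), the inner carnitine palmitoyltransferase. Acot3 had no gene closer than 0.853 (Gm36048), with Cidec, a lipid droplet protein, next at 0.898. Acot11 was nearest to Ptk6 (0.293), which dropped out with a lower prior count, and Gna14 (0.302), and Acot13 to Tfb2m (0.103), a mitochondrial transcription factor. Of the 32 listings over the members and the sum, in which a gene can stand more than once, 27 stayed with the lower prior count.

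Enzymes around the thioesterases were read from lists of genes, some of which (Ehhadh, for one) stand in more than 1 list. The counts of every list stand beside the shares of all tested genes called. These were 9.80% higher and 8.42% lower in HFD + Inhib versus HFD, and 9.58% and 8.80% in HFD versus LFD. For HFD + siRNA versus HFD they were 5.20% and 6.55%. Of 17 tested acyl-CoA synthetases, which form the substrates, 11 were higher in HFD + Inhib than in HFD and none was lower, with a median log2 fold change of 0.64. Slc27a1 led with 4.30 (SE 0.23, adjusted p = 4e-09), and Acsl1, the main long-chain synthetase of liver, went from 1050 to 3070 CPM (1.55, SE 0.16, adjusted p = 5e-06). In HFD + siRNA versus HFD none was higher and 3 were lower, Acss3 (-0.99) and Acsf2 (-0.65) leading, against 7 calls with DESeq2 and 1 with the offsets for GC content and length. In HFD versus LFD 1 was higher, Acss3 at 1.78, and 4 were lower. Acsm2 fell most, by -2.23, from 0.914 CPM in LFD to 0.184 CPM in HFD. Its HFD libraries, at 0.117 to 0.334 CPM, lay near the floor of 3 counts (0.102 CPM in HFD), so the size of this fall is uncertain.

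Coenzyme A, the other product, has its own makers and breakers. Of 15 tested genes of its synthesis and degradation, 6 were higher and 1 lower in HFD + Inhib than in HFD, with a median of 0.18. Vnn1, a pantetheinase, rose by 2.37 (SE 0.22, adjusted p = 2.3e-06) and Pank1, a pantothenate kinase at the first step of synthesis, by 0.88 (SE 0.14, adjusted p = 0.00025). The peroxisomal coenzyme A hydrolases Nudt7 and Nudt19 were at 0.54 (SE 0.23) and 0.11 (SE 0.11) without a call (adjusted p = 0.12 and 0.56). In HFD versus LFD 4 genes were higher and 3 lower, beside 9.58% and 8.80% of all tested genes. Vnn1 was at 1.44 and Nudt7 at -1, and the offsets for GC content and length left 4 calls in all. In HFD + siRNA versus HFD 2 were higher and 3 lower, beside 5.20% and 6.55% of all tested genes.

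Beta-oxidation uses the same esters. In HFD + Inhib versus HFD, 15 of 20 peroxisomal genes were higher and 1 lower (median 0.95), and 14 of 17 mitochondrial genes were higher and none lower (median 0.94). With the diet, 3 of the 20 peroxisomal genes were higher and 2 lower (median 0.10), beside 9.58% and 8.80% of all tested genes. Of the 17 mitochondrial genes 8 were higher and none lower (median 0.08). With the knockdown, 1 peroxisomal gene was higher and 2 were lower, and 1 mitochondrial gene was higher, beside 5.20% and 6.55% of all tested genes. Ehhadh went from 278 ± 32.6 to 6970 ± 1490 CPM (4.65, SE 0.16, adjusted p = 4.2e-11). Cpt1a, the liver gate of mitochondrial oxidation, was at 0.21 (SE 0.10, adjusted p = 0.17) with the inhibitor, and had risen with the diet by 0.72 (SE 0.10, adjusted p = 0.00033). With the knockdown, Ehhadh fell by 0.65 (SE 0.14, adjusted p = 0.0084).

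Of 19 tested genes of PPAR alpha, its partners and classic targets, 14 were higher and none lower in HFD + Inhib than in HFD, with a median of 1.51. Cyp4a10 and Cyp4a14 rose by 5.26 and 5.13 (SE 0.34 and 0.39, adjusted p = 3.4e-08 and 3.1e-07). Ppara itself was at 478 ± 92.9 CPM in HFD and 586 ± 61.7 CPM in HFD + Inhib, and the difference did not pass the test (0.29, SE 0.13, adjusted p = 0.12). Against HFD + siRNA, at 437 ± 27.3 CPM, Ppara was higher with the inhibitor (0.42, adjusted p = 0.017). In HFD versus LFD, Ppara rose by 0.81 (SE 0.13, adjusted p = 0.00076), and 4 of the 19 genes were higher and none lower. In HFD + siRNA versus HFD 1 was lower (Ehhadh) and none higher. The coactivator Ppargc1a, at 16.9 ± 3.70 CPM with the inhibitor and 20.4 ± 6.64 CPM in HFD, gave no call (adjusted p = 0.54).

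**Figure D5:**
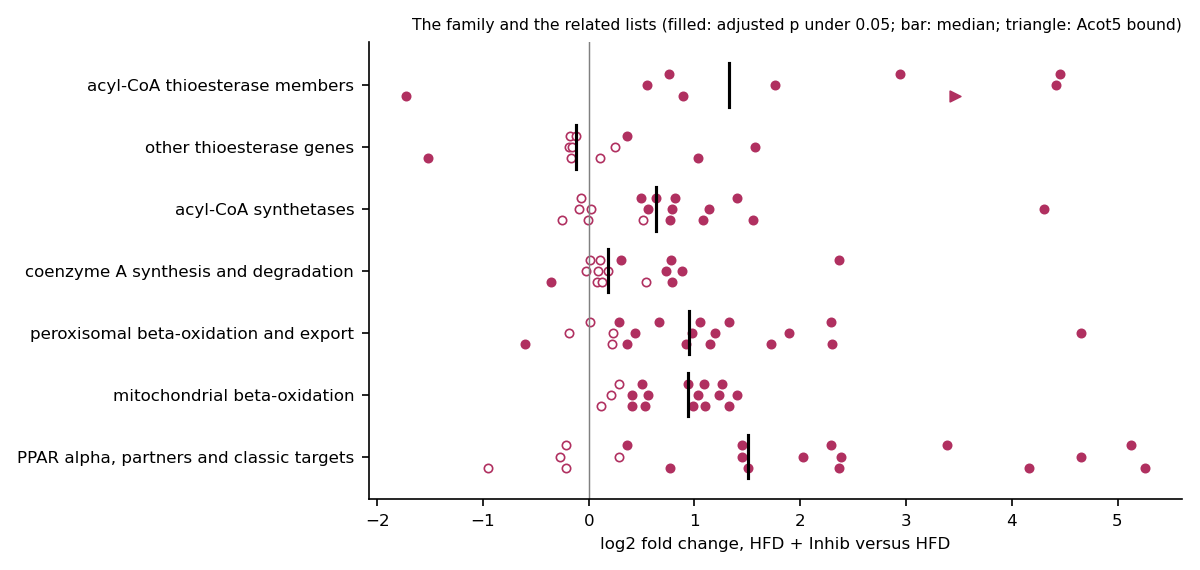
log2 fold change in HFD + Inhib versus HFD (horizontal axis) of each tested gene of the family and of 6 related lists. Filled points passed an adjusted p of 0.05, vertical bars are medians, and the triangle is Acot5 at its lower bound, which is left out of the family median; the medians are 1.32 for the other 8 members and 1.51 for the PPAR alpha list.

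Most thioesterase genes outside the 9 gave no call. Of 11 tested, 3 were higher in HFD + Inhib than in HFD (Acot6, Acot7 and Them7, the last named after its value was seen to complete the count). In the same comparison 1 was lower (Acnat2) and 7 did not pass, with a median of -0.12. Over all tested genes 9.80% were called higher and 8.42% lower, so 1 of 11 lower is near that share. In HFD versus LFD 4 were higher and none was lower, with a median of 0.33, beside 9.58% of all tested genes called higher. In HFD + siRNA versus HFD 1 was higher, beside 5.20% of all tested genes. Acot6, the last gene of the cluster, went from 1.42 ± 0.354 to 4.19 ± 1.06 CPM (1.57, SE 0.27, adjusted p = 0.00062). Acnat2, a relative of Baat, was at 149 CPM in HFD and 51.9 CPM in HFD + Inhib (-1.52, SE 0.35, adjusted p = 0.0061). Acot7 was 1.28-fold higher than in HFD with the inhibitor and 1.25-fold higher with the knockdown (adjusted p = 0.0056 and 0.018). Baat, which conjugates bile acids, gave no call in either (-0.18 and 0.21, adjusted p = 0.26 and 0.22).

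Markers of the cells in a liver sample were read alongside. Beside their counts stand the shares of all tested genes called, 9.80% higher and 8.42% lower for the inhibitor against HFD. The shares were 5.20% and 6.55% for the knockdown against HFD, and 9.58% and 8.80% for the diet. The summed level of 7 hepatocyte markers, led by Alb, was 66100 ± 6550 CPM in the HFD livers. It was 71500 ± 5080 CPM with the knockdown and 41000 ± 1620 CPM with the inhibitor, and 3 of the 7 were called lower with the inhibitor (Alb, Cps1 and Ttr) and none higher. The other 4 did not pass, Tat at 0.24 (adjusted p = 0.60) among them, and Alb made up most of the sum, at 51000 CPM in HFD and 29900 CPM with the inhibitor. Against the knockdown group 5 of the 7 were lower with the inhibitor, beside 16.6% of all tested genes. So were 3 of 7 Kupffer cell and macrophage, 1 of 5 stellate and 2 of 5 lymphocyte markers (Cd3g and Ms4a1, with at most 7 and 6 counts in any HFD + Inhib library). In the same comparison 1 of 5 endothelial markers was lower and 1 higher (Stab2 and Lyve1), and 1 of 5 cholangiocyte markers was higher (Cftr). Over all tested genes 17.3% were called higher, so 1 call of 5 in either direction is near the share over all genes. Both tested adipocyte markers were higher, but Cidea passed the filter only through HFD + Inhib. With the knockdown against HFD, Serpina1a was the one marker called, higher by 0.51 (adjusted p = 0.0071). With the diet Apoa1 and Serpina1a were lower, by -0.50 and -0.54. Of the 5 stellate markers Reln alone was called with the diet, higher by 0.38, and the median of the 5 was -0.04. The other 4 did not pass, with Des at -0.73, Col1a2 at -0.09, Col1a1 at -0.04 and Lrat at 0.15. Markers of Kupffer cells and macrophages summed to 188 ± 18 CPM in HFD and 156 ± 30.3 in HFD + Inhib (1 of 7 lower, Clec4f the most abundant). Those of stellate cells summed to 260 ± 32.9 and 191 ± 15.9 CPM (1 of 5 lower). That call was Reln, the most abundant, at 208 CPM in HFD and 132 CPM in HFD + Inhib. The other 4 stellate markers did not pass, with Lrat at 0.39, Des at 0.06, Col1a1 at 0.06 and Col1a2 at -0.17. Markers of endothelial cells summed to 265 ± 16.6 and 260 ± 8.66 CPM. Of these, Lyve1 was higher by 0.86 (adjusted p = 0.031) and Stab2, the most abundant, was at -0.11 (adjusted p = 0.50). Cholangiocyte markers summed to 11.1 ± 2.18 and 15.9 ± 5.44 CPM without a call, and lymphocyte markers to 3.06 ± 1.11 and 1.26 ± 0.379 CPM (2 of 5 lower). These 2, Ms4a1 and Nkg7, had at most 6 and 8 counts in any HFD + Inhib library. Nkg7 spread from 0.19 to 1.44 CPM over the HFD libraries.

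Of 5 adipocyte markers, 2 passed the filter and both were higher with the inhibitor. Cidea was at 0.461 CPM in HFD and 16.6 CPM in HFD + Inhib, and Cfd at 2.59 and 34.5 CPM. HFD replicate 2, at 1.23 and 6.70 CPM, lay above the other HFD libraries in both, which were at 0.152 to 0.265 CPM for Cidea and 0.797 to 1.79 CPM for Cfd. Without it the inhibitor difference of Cfd was larger (4.81 against 3.68, adjusted p = 2.7e-05). Only the HFD + Inhib libraries carried Cidea past the filter, so it had to differ there and is given by its levels alone. Between HFD and LFD, Cfd was called at 2.29 (adjusted p = 0.034), and the call was lost without that library (1.15, adjusted p = 0.22). Cidea had at most 2 counts in LFD, below the floor, and outside HFD + Inhib it passed 8 counts in HFD replicate 2 alone, so no fold is given for the diet. Fabp2, an intestinal marker, was higher in HFD than in LFD (1.53, adjusted p = 5.2e-06). Vil1, the other intestinal gene listed, was too low to be tested and went the other way (0.613 ± 0.66 CPM in LFD, 0.114 ± 0.0954 CPM in HFD). The adipocyte genes Adipoq, Plin1 and Lep had at most 3, 1 and 0 counts in any HFD + Inhib library, below their counts in HFD replicate 2. Of 4 kidney and intestine markers, Fabp2 alone passed the filter and was called higher with the inhibitor as well (82.4 CPM in HFD and 113 CPM in HFD + Inhib). The part of these markers in the thioesterase values was not tested. The log2 fold changes also followed the GC content of the transcripts: over the 3876 genes with a mean log2 CPM of 5 or more, and with genes not being replicates, Spearman's rho was -0.46 for the diet, 0.45 for the knockdown, -0.21 for the inhibitor against HFD and -0.44 for the inhibitor against the knockdown. After offsets for GC content and length, Acot13 was the member that lost a call in the inhibitor comparison, and Acot2, Acot11 and Acot13 gained one in the knockdown comparison.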

How the data were processed

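The authors deposited expected counts per gene symbol, as RSEM estimates them; the submitters' processing notes name STAR, RSEM and the build mm39. The methods name HTG EdgeSeq, a probe assay, so which assay made the table is unsettled. Counts were rounded (15.1% of values were not whole). Genes passing filterByExpr (10 counts) were tested in 1 fit of 16 libraries (edgeR 4.0.16 quasi-likelihood test, TMM factors 0.929 to 1.09, R 4.3.3), with Benjamini-Hochberg adjustment over 18335 genes and a threshold of 0.05. Acot1 and Acot2 were also summed before rounding. The labels name no batch and do not describe what the replicates share, so p-values measure the spread between these samples. Library pairs within a group differed by more than sampling noise (chi-square per gene 20.7 to 154). Alternatives included DESeq2 1.42.0, RLE factors, other filters, GC and length offsets (86.5% of tested genes have values), a replicate block and leaving out each library. The members and lists were chosen with earlier results of these data known. Named genes were the members, Khk, fixed genes of each list and its 2 largest calls. Genes most like a member were also named by the distance given above. Some genes that the rule would name are not reported here.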

Additional observations from a re-analysis of the deposited data

Results flagged for a closer look

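Among 37 sets of 4 libraries (each member and the sum of Acot1 and Acot2 in each group, leaving out Acot5 where it was at or under the floor), 2 had a single library set apart from the rest; chance sets apart about 1 in 20. Acot12 in HFD + Inhib replicate 3 was at 183 CPM, with the other libraries of the group from 188 to 190 CPM. Acot13 in LFD replicate 4 was at 24.4 CPM, with the others from 26.5 to 27.0 CPM.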

How the results depend on the processing

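In HFD versus LFD, HFD + Inhib versus HFD and HFD + Inhib versus HFD + siRNA, the number of members called stayed within 1.5 times of that reported in every alternative run. In HFD + siRNA versus HFD, 1 member was called, against 3 with DESeq2, 2 with at least 10 counts in every library, 2 in a fit of the 2 compared groups only (Acot2 and Acot11, without Acot3), 4 with GC content and length offsets and 0 at an adjusted p under 0.01. Leaving out a library gave 0 to 2. The replicate numbers share only a number: 6 of 24 same-numbered pairs of libraries had deviations correlated over 0.1 (range -0.132 to 0.336). With the number as a replicate block 0 members were called in that comparison (Acot3 at an adjusted p of 0.069), and 2 with the block and the offsets (Acot11 and Acot13); the block changed no other member count by over 1.5 times. The sum of Acot1 and Acot2 had a log2 fold change of -0.01 in HFD versus LFD, and the sign turned with 10 counts in every library (0.01), with the offsets (0.07), with the offsets and the block (0.08), and among the fits that left out a library, which ran from -0.15 to 0.30. In HFD + siRNA versus HFD those fits ran from -0.02 to 0.20. None of these values passed the test; the cause was not tested. In both inhibitor comparisons the sum kept its direction and call in all alternatives (4.31 to 4.59 against HFD, 4.21 to 4.47 against HFD + siRNA). Acot5 rests on 57 counts or fewer per library, and lower levels were not detectable at this depth. Of the related lists, those whose count of calls moved by over 1.5 times were the coenzyme A genes in HFD versus LFD (7, and 4 with the offsets), the other thioesterase genes in HFD + Inhib versus HFD + siRNA (5, and 8 with the offsets) and, in HFD + siRNA versus HFD, the synthetases (3, 7 with DESeq2 and 1 with the offsets), other thioesterases (1, and 2 with DESeq2), PPAR alpha genes (1, and 3 with DESeq2) and mitochondrial genes (1, 3 with DESeq2 and 0 with RLE factors). The fit of the adipocyte markers without HFD replicate 2 was chosen after seeing the data.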
